A study of Mus musculus with 16 samples.

Results

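The 7 genes described here encode proteins that release arachidonic acid and help turn it into prostaglandin E2 or leukotrienes, and one receptor for prostaglandin E2: Pla2g4a, Ptgs1, Ptgs2, Ptges, Ptger4, Alox5 and Alox5ap. The rule names the genes and uses no measured value. Open chromatin around them was read from 4 lists of ATAC-seq peaks, in which overlapping peaks were merged into regions, and a region was assigned to a gene when its midpoint lay within 100 kb of the 5' end of the gene record (the gene start). This gave 47 regions of 37648 over all lists, and no region was assigned to more than 1 of the 7 genes.

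ATAC-seq uses the Tn5 transposase, which inserts sequencing adaptors into accessible DNA. It was applied to bone marrow-derived macrophages of wild-type C57BL/6J mice, with 50000 cells in each of 16 libraries, in 4 groups of 4. On day 8 of culture, in medium without serum that held 4% conditioned medium of L cells, the macrophages received DMSO (Veh) or 500 nM T0901317 (T0), a synthetic agonist of the liver X receptor (LXR), for 3 h. Veh and T0 cells were then harvested. The LPS (DMSO first) and T0-LPS (T0901317 first) groups then also received 10 ng/mL LPS, which bacteria carry and TLR4 senses, for another 2 h. LPS went into the medium that already held the agonist, so T0-LPS cells had T0901317 for longer than T0 cells did. LPS and the longer culture therefore cannot be told apart, nor, between T0-LPS and T0, the longer time with T0901317. The study compared these groups to learn how an LXR agonist changes accessible macrophage enhancers. Each group was deposited as 1 peak list that pools its 4 libraries and keeps only peaks at macrophage enhancers, so no value below has a replicate check, and Wilson 95% intervals cover counting error only. In such bulk cells, fewer cells with an open site and less opening per cell cannot be told apart.

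Arachidonic acid is freed from membrane phospholipids by cytosolic phospholipase A2, the product of Pla2g4a. The cyclooxygenases Ptgs1, present in many resting cells, and Ptgs2, known for its induction by inflammatory signals, convert it to prostaglandin H2, from which Ptges makes prostaglandin E2, a ligand of the receptor Ptger4. In a separate branch the 5-lipoxygenase Alox5, helped by its activating protein Alox5ap, makes leukotriene A4, the precursor of the neutrophil attractant leukotriene B4.

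The Veh list held 35551 peaks, the T0 list 29839, the LPS list 33181 and the T0-LPS list 31085, and the number of reads behind them is unknown. Of 8 macrophage markers, 8 had a peak within 1 kb of the gene start in Veh and LPS and 7 in T0 and T0-LPS, where Csf1r had none. No such peak was found at 3 T cell, 2 mast cell or 2 hepatocyte markers. The B cell marker Ms4a1 and the neutrophil marker S100a8 had one in every list, each 1 of 3 markers of its type, and the fibroblast marker Col1a1, 1 of 2, in Veh alone. The part of these markers in the results was not tested.

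A selection of regions whose presence differed between the lists, and the region at the Ptgs2 start, are shown by their DNA, read 5' to 3' from the plus strand of GRCm38. Capitals mark matches, on either strand, to consensus letters of transcription factors: NF-kB, AP-1 (TGACTCA or TGAGTCA), C/EBP (TTGCNNAA) and the nuclear receptor half-site (AGGTCA). The palindromic letters match both strands and were counted once. A match is a string of letters and not a bound site.

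The stretch before the Ptgs2 start, chr1:150099690-150099989, is shown because it lies in the one region at that start and was open in all 4 lists. Its capitals are an NF-kB match centred 330 bp and a C/EBP match centred 66 bp before the start:
Ptgs2 start: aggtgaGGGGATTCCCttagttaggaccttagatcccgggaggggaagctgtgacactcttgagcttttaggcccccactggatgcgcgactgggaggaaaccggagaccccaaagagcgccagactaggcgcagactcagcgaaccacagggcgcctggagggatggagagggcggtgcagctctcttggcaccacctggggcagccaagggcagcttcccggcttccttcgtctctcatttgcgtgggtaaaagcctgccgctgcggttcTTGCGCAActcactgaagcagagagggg

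A stretch of the region 51.3 kb downstream of the Ptgs2 start, chr1:150151378-150151577, is shown because this region had the highest score percentile of any whose presence differed between lists, and it holds an AP-1 match:
Ptgs2 +51.3 kb: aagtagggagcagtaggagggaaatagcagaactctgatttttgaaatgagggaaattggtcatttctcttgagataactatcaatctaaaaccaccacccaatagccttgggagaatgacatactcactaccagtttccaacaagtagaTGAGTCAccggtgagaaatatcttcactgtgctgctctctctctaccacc

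The 3 regions within the Ptges record that had a peak only with LPS are shown next, on the strand opposite to the gene. They are the central 200 bases of the region at 16.6 kb (chr2:30913200-30913399, with an AP-1, a C/EBP and a half-site match), the whole region at 4.6 kb (chr2:30925170-30925454, AP-1) and the first 200 bases of the region at 2.5 kb (chr2:30927099-30927298, NF-kB):
Ptges +16.6 kb: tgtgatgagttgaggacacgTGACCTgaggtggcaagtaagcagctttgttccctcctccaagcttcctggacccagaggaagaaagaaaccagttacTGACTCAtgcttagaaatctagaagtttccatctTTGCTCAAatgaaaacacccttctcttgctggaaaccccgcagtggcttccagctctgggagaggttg
Ptges +4.6 kb: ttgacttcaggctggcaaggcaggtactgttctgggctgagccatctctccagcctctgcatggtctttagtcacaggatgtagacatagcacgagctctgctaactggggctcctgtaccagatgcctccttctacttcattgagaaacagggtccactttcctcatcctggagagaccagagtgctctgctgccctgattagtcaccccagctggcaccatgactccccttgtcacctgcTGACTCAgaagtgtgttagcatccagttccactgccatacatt
Ptges +2.5 kb: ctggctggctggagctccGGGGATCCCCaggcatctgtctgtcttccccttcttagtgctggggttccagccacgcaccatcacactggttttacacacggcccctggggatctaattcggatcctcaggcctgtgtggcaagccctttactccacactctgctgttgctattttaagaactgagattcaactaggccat

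Of the 8 regions with a Veh peak and no T0 peak, the 4 with a C/EBP match are shown, 3 in Pla2g4a introns and 1 upstream of Ptger4. The 4 others had no C/EBP match and are not shown. They are the whole regions 14.6 kb (chr1:149946539-149946809) and 3.6 kb (chr1:149957579-149957813) into Pla2g4a, and the central 200 bases of those 13.4 kb into Pla2g4a (chr1:149947756-149947955) and 19.1 kb upstream of Ptger4 (chr15:5263192-5263391). Both genes lie on the minus strand:
Pla2g4a +14.6 kb: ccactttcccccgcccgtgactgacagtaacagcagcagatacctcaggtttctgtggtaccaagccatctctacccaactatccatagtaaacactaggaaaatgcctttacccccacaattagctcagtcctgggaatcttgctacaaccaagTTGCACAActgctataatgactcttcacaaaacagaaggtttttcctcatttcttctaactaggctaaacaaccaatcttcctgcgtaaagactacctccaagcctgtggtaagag
Pla2g4a +13.4 kb: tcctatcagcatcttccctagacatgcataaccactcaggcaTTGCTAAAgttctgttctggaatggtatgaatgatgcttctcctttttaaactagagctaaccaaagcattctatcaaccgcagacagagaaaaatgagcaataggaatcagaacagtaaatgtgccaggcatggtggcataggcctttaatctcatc
Pla2g4a +3.6 kb: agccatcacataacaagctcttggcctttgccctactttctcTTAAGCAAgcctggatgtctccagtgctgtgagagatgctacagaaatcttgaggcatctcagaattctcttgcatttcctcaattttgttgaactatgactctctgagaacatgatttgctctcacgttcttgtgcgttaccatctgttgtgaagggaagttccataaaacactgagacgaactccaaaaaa
Ptger4 -19.1 kb: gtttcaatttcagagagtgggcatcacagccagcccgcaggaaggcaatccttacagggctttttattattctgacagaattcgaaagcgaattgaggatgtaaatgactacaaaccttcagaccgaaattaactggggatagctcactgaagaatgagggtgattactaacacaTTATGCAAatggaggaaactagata

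Most of the open chromatin around these genes was shared by all treatments. Of the 47 regions, 33 (70.2%, Wilson 56.0% to 81.3%) held a peak in all 4 lists, against 26439 (70.2%) of all regions. Of the 14 others, 4 had a peak in every list but T0 (8.51% of the 47, against 4.98% of all regions). Only LPS and T0-LPS held 3 (6.38% against 2.69%), and LPS alone held 3 (6.38% against 2.41%). Only Veh and LPS held 2 (4.26% against 3.17%), and Veh alone held 2 (4.26% against 7.73%). All 33 regions with a T0 peak were in all 4 lists, as were 26439 of the 29069 such regions of the whole series. Ptges, with 11 regions, had 6 of the 14, Pla2g4a 4, Ptgs1 2, and Ptgs2 and Ptger4 1 each, while all 3 regions of Alox5 and all 9 of Alox5ap were in every list.

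To place a peak within its list, the score percentile was used, the percent of that list's peaks with a lower score, ties shared equally. The score itself is the authors' peak score on each list's own scale and was not compared between lists. Lists of unequal length shift these percentiles, since a shorter list lacks weak peaks. From Veh to T0 the median change was -5.58 percentage points over all regions held by both lists. A region was called T0-closed when it held a Veh peak and no T0 peak, and T0-opened for the reverse; LPS-closed and LPS-opened set the LPS list against Veh in the same way. These names describe presence in a list, not a measured loss or gain of signal. A missing peak was said to have room when the peak numbers on either side of it in that list were not consecutive, so that a peak could have been called there and then removed by the enhancer filter.

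**Figure D1:**
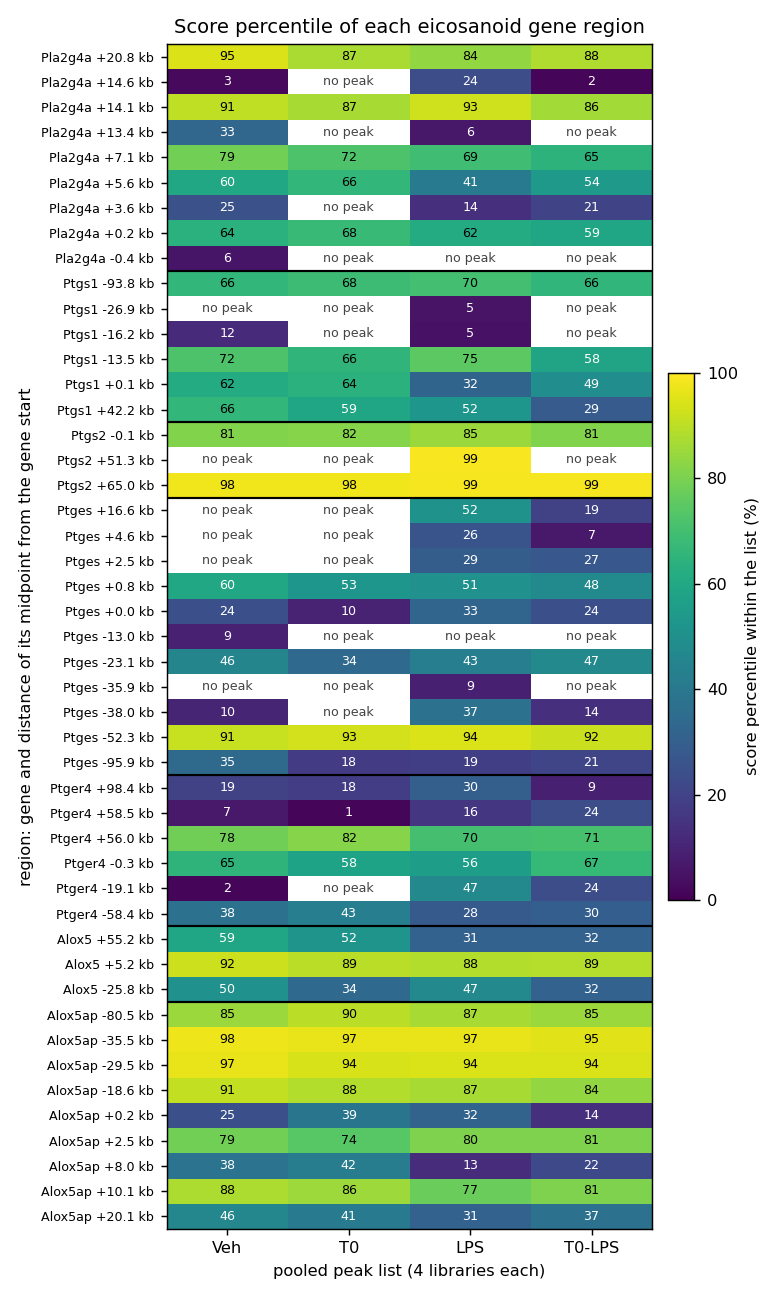
Score percentile (%, colour and printed value) of each of the 47 regions (rows, named by gene and by the distance of the midpoint from the gene start in kb) in the 4 pooled peak lists (columns). White cells are lists without a peak; they stand at 14 regions, 6 of them around Ptges and 4 around Pla2g4a, and none around Alox5 or Alox5ap.

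Pla2g4a, at chr1:149829618-149961290 on the minus strand, had 9 regions, all of them nearer to its start than to that of any other protein-coding gene, and 8 of them in its introns. The Veh list held 9, T0 5, LPS 8 and T0-LPS 7. The region at the start, 175 bp into the gene, was at percentile 64.0 in Veh and 67.6 in T0, against 61.7 in LPS and 59.2 in T0-LPS, so it was present in all of them at a similar rank.

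T0-closed regions were most numerous at this gene, 4 of its 9 Veh regions (44.4%, Wilson 18.9% to 73.3%), beside 18.1% of all regions with a Veh peak. The peak numbers left no room for a removed T0 peak at any of the 4, beside 11.3% of all that were T0-closed without room. These neighbouring regions are not independent, and with lists of equal length only those at 13.4 kb and 3.6 kb were T0-closed. The intronic region at 13.4 kb stood at percentile 33.1 in Veh and 6.32 in LPS and was absent from T0 and T0-LPS. The one at 3.6 kb stood at 24.6 in Veh, 13.6 in LPS and 20.6 in T0-LPS and was absent from T0. Both were thus in the lower part of every list that held them.

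Weaker in Veh was the region at 14.6 kb, at percentile 2.69 in Veh, 23.6 in LPS and 1.59 in T0-LPS. A peak 379 bp upstream of the start was held by Veh alone, at percentile 5.62, with room for 3 removed peaks in LPS and 1 in T0-LPS. The 3 T0-closed intronic regions are those whose C/EBP matches are printed above, and 2 of them had a peak in T0-LPS.

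The other Pla2g4a regions were held by every list. The region at 20.8 kb was at percentile 94.7 in Veh and 87.1 in T0, beside 83.8 in LPS and 88.2 in T0-LPS, and the one at 14.1 kb, between 2 T0-closed regions, at 90.5, 87.0, 92.9 and 86.1 in that order. The region at 7.1 kb fell by 6.57 percentage points from Veh to T0 and fell by 9.31 from Veh to LPS. Ranked only among regions held by all 4 lists, it fell by 2.90 and by 9.48. The largest rise at this gene was that of the 14.6 kb region, by 20.9 percentage points from Veh to LPS, after which it fell by 22.0 from LPS to T0-LPS. The largest fall was at 13.4 kb, which fell by 26.7 from Veh to LPS.

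Ptgs1, at chr2:36230426-36252272 on the plus strand, had 6 regions, 4 of them in all lists. The region over its start and 5' untranslated sequence was at percentile 61.5 in Veh and 63.7 in T0, against 32.2 in LPS and 48.8 in T0-LPS. Both lists with LPS were thus below both lists without it, by 29.3 points for LPS against Veh and by 14.8 for T0-LPS against T0. From LPS to T0-LPS it rose by 16.6, the largest rise at this gene.

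An intergenic region 42.2 kb downstream of the Ptgs1 start went from percentile 66.2 in Veh and 58.8 in T0 to 52.4 in LPS and 28.8 in T0-LPS. Its fall by 29.9 from T0 to T0-LPS was the largest at this gene. The 2 regions that some lists lacked were weak. One at 16.2 kb upstream, at percentile 12.0 in Veh and 4.80 in LPS, had no peak in T0 or T0-LPS, and one at 26.9 kb upstream had a peak at percentile 5.27 in LPS alone. None of the lists that lacked them had room for a removed peak there.

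Ptgs2, at chr1:150100031-150108227 on the plus strand, starts 138.7 kb from Pla2g4a and shared no region with it. The region at its start was at percentile 81.0 in Veh and 82.0 in T0, and 85.1 in LPS and 81.1 in T0-LPS. Its rise of 4.14 points from Veh to LPS and its fall by 4.00 from LPS to T0-LPS were the largest rise and fall at this gene, so the start of the inducible cyclooxygenase was open to a similar rank in all lists, the unstimulated ones included.

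A second region of Ptgs2, 65.0 kb downstream, was among the strongest of every list, at percentile 97.7 in Veh and 97.9 in T0, against 98.5 in LPS and 98.6 in T0-LPS. The third, at 51.3 kb (chr1:150151024-150151731), was held by LPS alone, at percentile 98.9. Between its flanking regions, however, each of the 4 lists had 3 peak numbers, of which the LPS list retained 1 and the others 0. A peak of this strength may have been called in any of them and removed by the filter, so its absence from Veh, T0 and T0-LPS does not show a difference in accessibility.

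Ptges, at chr2:30889471-30929863 on the minus strand, had the largest number of regions, 11, and the most that some lists lacked. Its record begins 26.6 kb upstream of 30903297, the start of its only transcript in the basic GENCODE annotation, and no list had a peak or room for one at that transcript start. The 5 regions between 26 bp and 16.6 kb into the record lay outside the basic transcript, upstream of its start. All Ptges distances below are from the 5' end of the record.

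Where LPS was given, 3 regions inside the Ptges record appeared that neither list without LPS held or had room for. The region at 16.6 kb was at percentile 51.5 in LPS and 19.3 in T0-LPS. The region at 4.6 kb was at 25.9 in LPS and 6.84 in T0-LPS. At 2.5 kb the percentiles were 29.4 in LPS and 27.1 in T0-LPS. All 3 ranked lower when T0901317 preceded LPS, by 32.2, 19.1 and 2.32 points, against a median of -1.76 points over all regions held by LPS and T0-LPS.

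The region 26 bp from the 5' end, with CRE, AP-1 and C/EBP matches, was at percentile 24.3 in Veh and 10.0 in T0, beside 32.6 in LPS and 24.2 in T0-LPS, and so was lower with T0901317 than without it whether or not LPS was given. Ranked only among regions held by all 4 lists, it fell by 1.13 points from Veh to T0 and fell by 3.90 from LPS to T0-LPS, a smaller drop. Its neighbour at 0.8 kb was at 59.7 in Veh and 52.6 in T0, and 50.6 in LPS and 47.6 in T0-LPS. Ranked only among regions held by all 4 lists, this neighbour rose by 0.694 points from Veh to T0. Both regions were present in all lists, unlike the 3 regions farther in.

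Upstream of Ptges, regions lay nearer to other genes. The one at 38.0 kb upstream, in untranslated sequence of the torsin gene Tor1a, rose by 27.2 points, from percentile 10.2 in Veh to 37.4 in LPS, was at 13.9 in T0-LPS, and was absent from T0, where there was room for 1 removed peak. A peak at 35.9 kb in a Tor1a intron was held by LPS alone, at percentile 8.82, and the T0 list had room for 1 there. Veh alone held a peak at 13.0 kb, nearest to Tor1b, at percentile 9.01. The region at 52.3 kb stayed between percentile 91.4 in Veh and 94.2 in LPS.

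**Figure D2:**
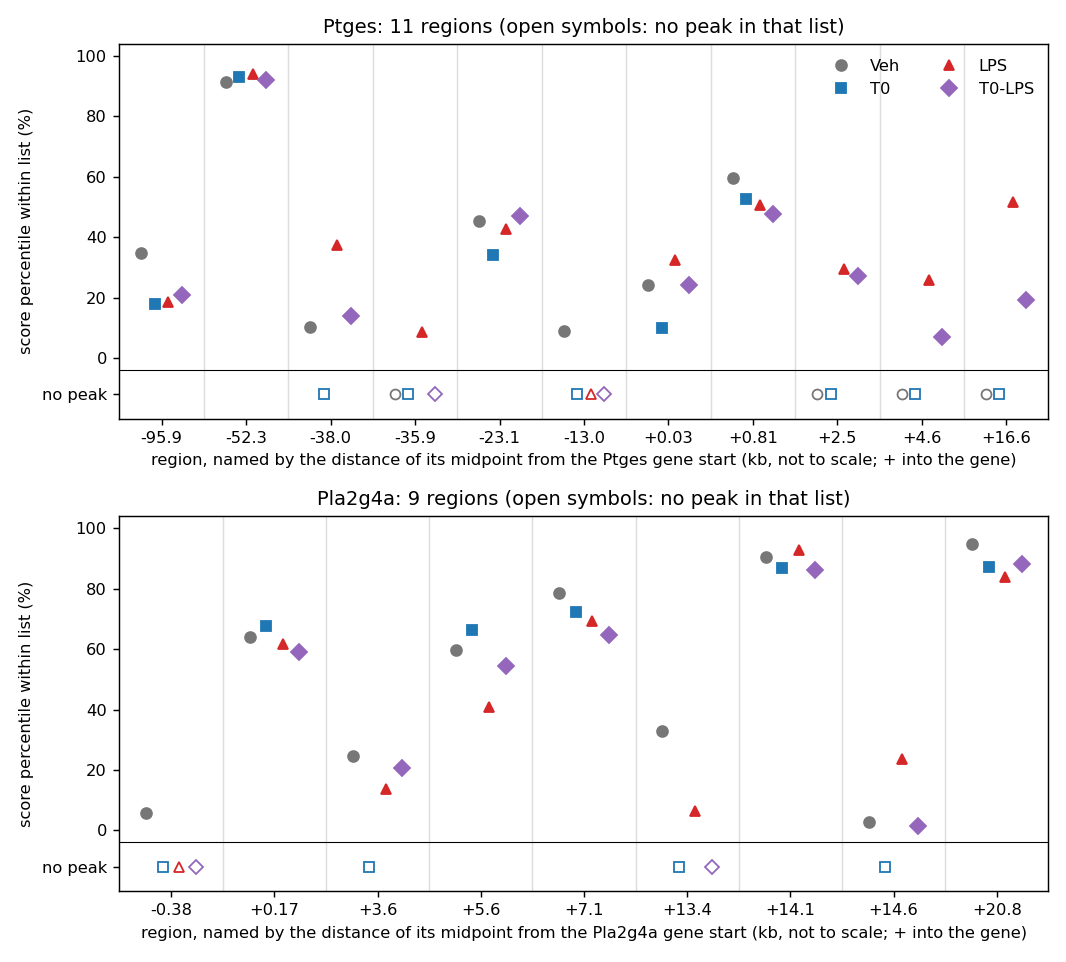
Score percentile within each list (%, y axis) of the 11 Ptges regions and the 9 Pla2g4a regions, in order of distance from the gene start (x axis, kb). Filled symbols are peaks of the Veh, T0, LPS and T0-LPS lists and open symbols at the bottom are lists without a peak; the 3 Ptges regions at 2.5, 4.6 and 16.6 kb have symbols for LPS and T0-LPS only, and 4 Pla2g4a regions have no T0 peak.

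Ptger4, which encodes the EP4 receptor for prostaglandin E2, lies at chr15:5206661-5244187 on the minus strand and had 6 regions, 5 of them in all lists. The region 300 bp upstream of its start was at percentile 64.9 in Veh and 58.0 in T0, against 55.9 in LPS and 67.1 in T0-LPS. Ranked only among regions held by all 4 lists, it fell by 0.297 points from Veh to T0. The upstream region at 19.1 kb was near the bottom of the Veh list, at percentile 1.92, and was at 47.2 in LPS and 23.6 in T0-LPS. Its rise of 45.3 points from Veh to LPS was the largest of any region of the 7 genes, and it then fell by 23.6 from LPS to T0-LPS. It was absent from T0, with room for 1 removed peak.

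The remaining Ptger4 regions moved less. The region 58.5 kb downstream, in untranslated sequence of Ttc33, was at percentile 6.89 in Veh and 1.40 in T0, beside 15.8 in LPS and 23.6 in T0-LPS, and the one 98.4 kb downstream in a Prkaa1 intron was at 19.4, 18.2, 30.2 and 8.77 in that order. Both lay nearer to other genes than to Ptger4.

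For Alox5 and Alox5ap, of the leukotriene branch, every region was present under every treatment. At the leukotriene A4 hydrolase gene Lta4h 7 of 12 regions were in all lists, and at the leukotriene C4 synthase gene Ltc4s 10 of 15. Alox5, at chr6:116410077-116461178 on the minus strand, had no peak within 1 kb of its start in any list, nor room for a removed one. Its nearest region, in an intron at 5.2 kb, was at percentile 92.2 in Veh and 89.5 in T0, and 88.4 in LPS and 89.0 in T0-LPS. Farther downstream, at 55.2 kb in an intron of March8, a region was at 59.1 in Veh and 51.6 in T0 against 31.5 in LPS and 31.6 in T0-LPS, a fall by 27.6 points from Veh to LPS. The largest rise at this gene was 0.640 points, at 5.2 kb from LPS to T0-LPS.

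Alox5ap, at chr5:149264767-149288153 on the plus strand, was surrounded by strong peaks. Regions 35.5 kb, 29.5 kb and 18.6 kb upstream and the one 10.1 kb downstream of its start ranged from percentile 77.2 to 97.6 over the 4 lists. The region at the start itself, 228 bp into the gene, was weaker, at 24.5 in Veh and 38.9 in T0, against 31.8 in LPS and 13.9 in T0-LPS. It rose by 14.4 points from Veh to T0, the largest rise at this gene, and was 25.0 points lower in T0-LPS than in T0. The intronic region at 8.0 kb fell by 25.5, from percentile 38.1 in Veh to 12.7 in LPS, and was at 42.3 in T0 and 22.0 in T0-LPS.

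Counted over all 7 genes, 8 of the 41 regions with a Veh peak were T0-closed, 19.5% (Wilson 10.2% to 34.0%), beside 18.1% of all such regions, so the share was near the background. Of the 8, 4 were at Pla2g4a, 2 at Ptges and 1 each at Ptgs1 and Ptger4. For 6 of them, 14.6% of the 41, there was no room for a removed T0 peak, against 11.3% of all. The T0 list was the shortest. When each list was cut to its 29839 highest peaks, the share was 2 of 34, 5.88%, against 7.70% of all, and the 2 were the Pla2g4a regions at 13.4 kb and 3.6 kb. Without Pla2g4a, 4 of 32 regions were T0-closed, 12.5%. In the other direction, 0 of 33 regions were T0-opened (Wilson 0% to 10.4%), beside 0.729% of all.

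LPS-opened regions numbered 6 of 45, 13.3% (6.26% to 26.2%), beside 6.14% of all regions with an LPS peak, and 5 of the 6 had no room for a removed Veh peak, 11.1% against 3.76%. Of these 6, 4 were around Ptges, and without Ptges 2 of 35 remained, 5.71%, near the background. With lists of equal length the members' share was 19.5% and that of all regions 9.30%. LPS-closed regions were 2 of 41, 4.88% (1.35% to 16.1%), beside 13.0% of all, namely the upstream Pla2g4a and Ptges peaks held by Veh alone. The T0-closed and both LPS comparisons share the Veh list.

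Among cells given LPS, 5 of 45 regions with an LPS peak lacked one in T0-LPS, 11.1% (4.84% to 23.5%), beside 9.97% of all. They were 2 of Ptgs1 and 1 each of Pla2g4a, Ptgs2 and Ptges, and except for the Ptgs2 region at 51.3 kb they were at percentile 8.82 or lower in LPS. Of 40 regions with a T0-LPS peak, 0 lacked an LPS peak (0% to 8.76%), beside 3.37% of all.

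In cells that had received T0901317, 7 of 40 regions with a T0-LPS peak lacked a T0 peak, 17.5% (8.75% to 32.0%), beside 11.7% of all. They were 4 around Ptges, 2 in Pla2g4a and 1 upstream of Ptger4. Of these, the 3 inside the Ptges record also lacked a Veh peak. In the reverse direction, 0 of 33 regions with a T0 peak lacked a T0-LPS peak (0% to 10.4%), beside 7.70% of all.

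**Figure D3:**
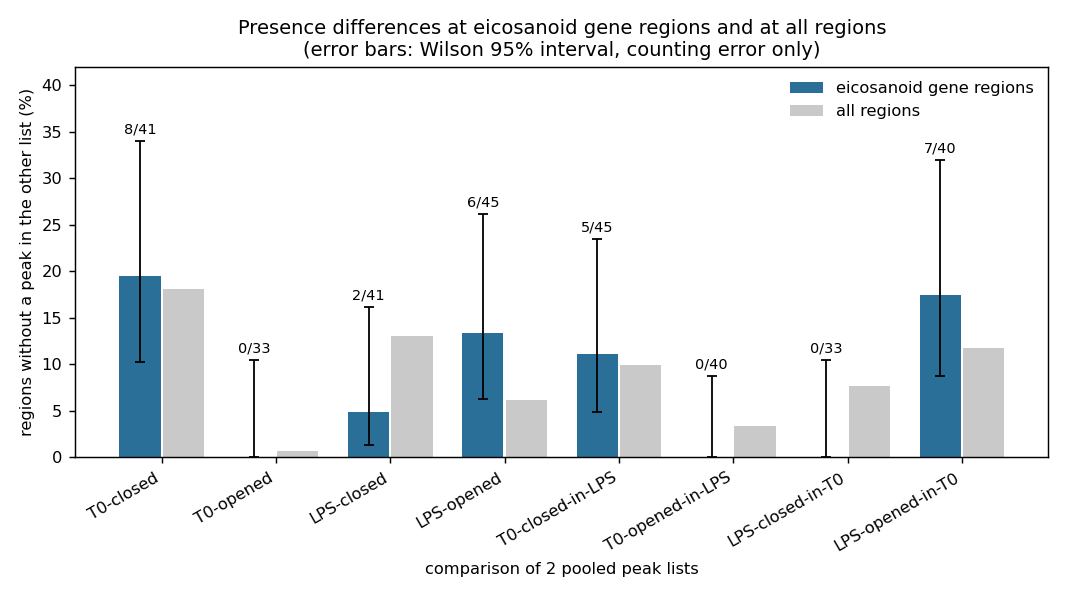
Percent of regions with a peak in the first list of a comparison and none in the second (y axis) for the 8 comparisons (x axis), at the eicosanoid gene regions (blue, counts above, bars are Wilson 95% intervals for counting error only) and at all regions (grey). The LPS-opened share, 13.3% against 6.14%, is the only one whose interval does not hold the value of all regions.

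Where both lists of a pair held a peak, the 7 genes' regions moved little in rank as a group, except from T0 to T0-LPS. From Veh to T0 the median change in percentile was -2.77 points over 33 regions, against -5.58 over all 28857 shared regions. From Veh to LPS it was -3.23 over 39, against -2.01, and from LPS to T0-LPS -2.08 over 40, against -1.76. From T0 to T0-LPS it was -3.29 over 33, against 0.597. Lists of unequal length shift such medians, since the shorter list lacks weak peaks. Ranked only among regions held by all 4 lists, the medians over 33 regions were 0 from Veh to T0, -2.66 from Veh to LPS and 0.219 from LPS to T0-LPS, each against a median between 0.0586 and 0.130 over all 26439.

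The comparison of T0-LPS with T0, which also differ in the time with T0901317, stood farthest from the background on this measure. Its median was -5.44 points over the 33 regions, with 24 lower and 9 higher (72.7% lower), against 50.6% lower over all. The regions that were lower included all 4 of Ptgs1, all 3 of Alox5, 7 of 9 of Alox5ap, 4 of 5 of Pla2g4a, 3 of 5 of Ptger4, 2 of 5 of Ptges and 1 of 2 of Ptgs2. Peaks were narrower with T0 than with Veh at 30 of 33 regions, 90.9%, near the 87.6% of all shared regions.

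**Figure D4:**
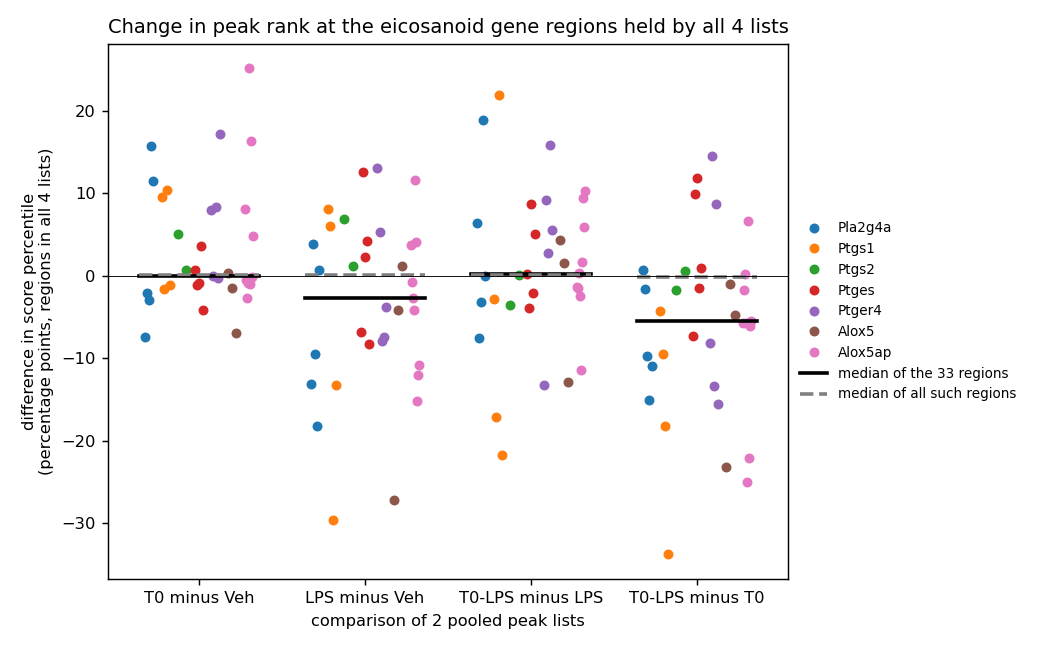
Difference in score percentile (percentage points, y axis), ranked among regions held by all 4 lists, for each of 33 regions (points, coloured by gene) in 4 comparisons of lists (x axis). Black lines are the medians of the 33 regions and dashed grey lines those of all 26439 regions; the black line lies at -5.44 for T0-LPS minus T0, where 24 of 33 points are below 0.

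Sequence matches were counted in the central 200 bases of each region, where their shares were set beside those of all regions. An AP-1 match was found in 6 of 47 regions (12.8%, against 13.4% of all), a PU.1 match (GAGGAAGT) in 4 (8.51% against 8.55%), a half-site in 5 (10.6% against 11.9%) and an NF-kB match in 1 (2.13% against 4.31%). C/EBP matches were in 9 (19.1%, Wilson 10.4% to 32.5%, against 10.7%), CRE matches (TGACGTCA) in 2 (4.26%, 1.17% to 14.2%, against 1.09%), and the LXR-type direct repeat, 2 half-sites with 4 bases between them and up to 2 mismatches, in 3 (6.38%, 2.19% to 17.2%, against 1.94%). The half-site is part of an exact repeat, so these matches can overlap.

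Among the 8 T0-closed regions, C/EBP letters were in 4, the ones printed above, against 11.3% of all T0-closed regions. Most of these 4 are neighbouring regions of Pla2g4a and so not independent. An NF-kB match was in 1 of the 8 and a PU.1 match in 1, against 3.43% and 9.15% of all T0-closed regions. None of the 8 had a half-site or the direct repeat, which 11.8% and 1.95% of all T0-closed regions held. Of the 6 LPS-opened regions, 0 had an NF-kB match in the centre, against 18.1% of all LPS-opened regions. In the whole region 1 had it, the one 2.5 kb into the Ptges record, against 21.2% of all. An AP-1 match was in the centre of 1 and in the whole region of 3, against 14.1% and 17.3%. The AP-1 matches printed for Ptgs2 +51.3 kb and Ptges +4.6 kb lay 154 bp and 103 bp from the region centre, outside the central 200 bases. C/EBP and half-site matches were each in the centre of 2, against 16.15% and 12.6%. The direct repeat was in the centre of 1 of these 6, the Tor1a intron region held by LPS alone, against 2.15% of all LPS-opened regions.

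A list of 32 other genes of the pathway was read in the same way. Of these, 30 had a region within 100 kb, all but the prostaglandin F receptor gene Ptgfr and the prostaglandin transporter gene Slco2a1, and 180 of their 265 regions (67.9%) were in all lists. T0-closed regions were 45 of 250 (18.0%), LPS-opened 12 of 225 (5.33%), LPS-closed 37 of 250 (14.8%) and T0-opened 3 of 208 (1.44%). In cells given LPS, 28 of 225 LPS regions lacked a T0-LPS peak (12.4%) and 8 of 205 T0-LPS regions lacked an LPS peak (3.90%). In cells given T0901317, 21 of 205 T0-LPS regions lacked a T0 peak (10.2%), and 24 of 208 T0 regions lacked a T0-LPS peak, 11.5% (Wilson 7.88% to 16.6%), the one of the 8 shares whose interval did not hold the value of all regions, 7.70%. The T0-closed counts by role used another base, all regions with or without a Veh peak. They were 10 of 44 at phospholipases, 19 of 99 at synthases, 13 of 94 at receptors and 3 of 28 at removal and transport genes. On that base, 6365 of 37648 regions of the whole series were T0-closed.

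Of 16 such genes with a region within 1 kb of the start, 10 had the nearest one in all lists. Over the whole series, 82.2% of regions within 1 kb of a start were in all lists. That share counts regions, not the nearest region of each gene, so it cannot be set directly against the 10 of 16. Ptgir, the prostacyclin receptor gene, had its start region in LPS (percentile 24.6) and T0-LPS (25.2) and in neither list without LPS. Hpgd, which encodes the enzyme that inactivates prostaglandins, had one in Veh alone, at 18.9, with room for 1 removed peak in LPS. The start region of the phospholipase gene Pla2g7 lacked a peak in T0 alone, with percentiles of 37.8 in Veh, 53.4 in LPS and 43.2 in T0-LPS, as did that of the leukotriene receptor gene Cysltr2, with 12.6, 36.4 and 25.7. The EP2 receptor gene Ptger2 lacked its nearest peak in LPS, with percentiles of 28.8 in Veh, 22.1 in T0 and 26.2 in T0-LPS. Another Ptger2 region, 355 bp into the gene, was at 13.4 in Veh, 6.10 in T0 and 5.27 in LPS and absent from T0-LPS. The EP3 receptor gene Ptger3 lacked its nearest peak in T0-LPS, with 13.1 in Veh, 8.73 in T0 and 8.24 in LPS.

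The widest change of rank at these other genes was at the start of Hpgds, the hematopoietic prostaglandin D synthase gene, at percentile 84.1 in Veh and 86.8 in T0 against 38.7 in LPS and 26.5 in T0-LPS. An intergenic region 24.0 kb downstream of the prostaglandin D receptor gene Ptgdr fell by 47.2 points from Veh to LPS, and one 20.7 kb upstream of Lta4h, the leukotriene A4 hydrolase gene, fell by 41.3. Regions that moved up from T0 to T0-LPS lay 25.5 kb from the start of Ltc4s, leukotriene C4 synthase (55.0 points, nearest gene Mgat4b), and 19.9 kb from Pla2g6 (47.1 points, in an intron of Maff). A region 64.5 kb from Ptgds rose by 46.4 points from Veh to LPS and lay in an intron of Traf2.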

How the data were processed

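Libraries were made from bone marrow-derived macrophages and grouped by the labels into Veh, T0, LPS and T0-LPS. Per the study's methods and the submitters' processing notes, adaptors were trimmed with cutadapt, reads were aligned to mm10 with Bowtie2, duplicates were removed with SAMtools, peaks were called with MACS2 on the 4 libraries of a group together, and peaks at macrophage enhancers defined by H3K27ac or H3K4me2 were kept; the notes also name bedtools and give no tool versions. The deposited score is the peak score the authors' caller gave; it has no stated scale and grows with pooled depth, so only ranks within a list were used. The depth of each library is unknown.

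Peaks that overlapped by 1 bp or more were merged and matched to GENCODE vM21 gene records of GRCm38, the same assembly as mm10; all 129556 peaks on the main chromosomes ended within it, and all 7 genes were found by symbol. Gene names, nearest genes and placements use the basic annotation, and distances are from the 5' end of the gene record. Peak names end in numbers that increased with position in every list, and these were taken to count the peaks as called, which no header states. Motifs were searched in the central 200 bp. The 7 genes, the pathway list, the markers and the comparisons were chosen with earlier results of these data known. Named for each gene were the region nearest its start, every region not in all 4 lists, and those with the largest rise and fall in percentile. Other pathway genes were named when their start region was not in all lists, with 6 more for the largest shift. No test was run, since each group is 1 list. Scripts used Python 3.11.15, numpy 2.4.6, scipy 1.17.1 and pysam 0.24.0, and merging, ranking and matching were tested on simulated peaks.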

Additional observations from a re-analysis of the deposited data

How the results depend on the processing

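The shares, percentile changes and match shares were recomputed with gene windows of 10, 50 and 200 kb, basic transcript starts, a score of at least 100, 50% reciprocal overlap, peaks within 200 bp merged, lists cut to equal length, regions nearest to a member only, other percentiles, whole regions for matches, and regions over 1 kb from a start for matches. Counting only missing peaks without room was added after seeing the data. Of 147 recomputed values, 140 were counted as stayed, with shares within the interval given above and region counts within 1.5 times. For the percentile changes no interval is given above, and some that were counted as stayed changed sign. With lists of equal length the median went from -2.77 to 0.287 for Veh to T0 and from -2.08 to 0.151 for LPS to T0-LPS. The share of LPS regions without a T0-LPS peak, also counted as stayed, was then 4.88% against 6.73% of all regions. Of the 7 others, 2 were region counts and 5 were shares, each of which crossed to the other side of the share of all regions. The count of 47 regions became 16 with a window of 10 kb and 82 with 200 kb. The T0-closed share of 19.5% became 5.88% with lists of equal length, where weak Veh peaks are left out, against 7.70% of all regions. Of LPS peaks, 0% (of 15) lacked a T0-LPS peak within 10 kb, against 11.1% within 100 kb and 9.97% of all regions. Over the whole region, longer than its central 200 bp, the AP-1 share was 25.5% and the half-site share 27.7%, against 19.1% and 23.6% of all regions. The CRE share was 0% over 33 regions farther than 1 kb from a start, against 0.624% of all such regions.

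No paired analysis was possible because each list pools the 4 libraries of its group. Small counts set wide intervals: a share from 41 regions cannot be told from the background when the background lies within its interval, and neighbouring regions of a gene are not independent.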
